A study of Mus musculus with 12 samples.

Results

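The replication-dependent histone genes of mouse embryonic stem cells were described as the genes whose symbol begins with Hist1h, Hist2h, Hist3h or Hist4h in the authors' tables. Such a symbol was carried by 68 of the 22753 genes counted, and 63 of them had at least 10 reads summed over the 12 libraries: 6 of class H1, 16 of H2A, 16 of H2B, 12 of H3 and 13 of H4. The 5 that fell below this minimum were Hist1h2ap and Hist1h2br with 0 reads, Hist1h2bq with 1, Hist1h2ao with 2 and Hist2h2aa1 with 7. Just above it were Hist1h2al with 13 reads, Hist2h2aa2 and Hist2h2ab with 18 each, and Hist1h2ba with 31.

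Core histones H2A, H2B, H3 and H4 form the protein spool of the nucleosome, and the linker histone H1 binds the DNA where it enters and leaves the spool. Cells make most of this protein during S phase from clusters of genes without introns, and most copies of each core class make the same or almost the same protein. Their mRNAs normally end in a short stem-loop in place of a poly(A) tail. The stem-loop binding protein SLBP holds that structure, U7 small nuclear RNA guides the cut just after it, and the finished mRNA is destroyed when DNA synthesis stops. Replacement histones such as H3.3 come from other genes that have poly(A) tails and are made throughout the cell cycle.

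RNA was sequenced from clones 10 and 4 of embryonic stem cells derived from mice labelled Sphk1 fl/fl Sphk2-/-, so that every group carries the label of a sphingosine kinase 2 knockout. All cells were kept for 48 hours in (Z)-4-hydroxytamoxifen at 6 uM, a drug used to activate Cre recombinases that are fused to an estrogen receptor domain, and were sorted by the fluorescence of Cre-GFP. The labels do not say whether this Cre is such a fusion. The sorted groups were GFP+ cells, labelled Sphk1-/- Sphk2-/-, and GFP- cells, labelled Sphk1 fl/fl Sphk2-/-, each with 3 libraries in each clone. Each clone is a single line, the promoter that drives Cre-GFP is not stated in the labels, and labelled passages ran from 11 to 20 and differed between replicates. In replicates 1 to 3 of clone 10, GFP- and GFP+ cells were labelled passage 11 and 12, 17 and 18, and 19 and 20. In clone 4 the labels were 11 and 11, 13 and 14, and 15 and 16. Sort and a later passage thus cannot be told apart within the pairs of clone 10. Nothing in the labels says that replicates were separate cultures, so every p-value reflects how far these libraries scatter, for technical or other reasons.

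Libraries held 12968916 to 34258395 counted reads, so 1 CPM (the reads of a gene scaled to the library total) was worth 13.0 to 34.3 reads. Reads of Sphk1 did not separate the sorted groups: clone 10 had 0.889, 1.14 and 3.01 CPM in GFP+ replicates 1 to 3, against 0.694, 1.41 and 4.30 CPM in GFP- replicates 1 to 3, and clone 4 had 2.02, 1.06 and 0.701 CPM in GFP+ replicates, against 1.96, 3.02 and 1.78 CPM in GFP- replicates. Sphk2, labelled as knocked out in every group, had 26 to 272 reads (1.19 to 8.34 CPM) in the 12 libraries. Counts per gene cannot show which exons were read, so these reads do not check the labels, which are used as given. Clone 10 GFP- replicate 1 stood apart as the shallowest library, with the lowest share of mitochondrial reads (0.143%; the other 11 libraries had 0.594% to 2.32%). The deepest libraries were clone 10 GFP+ replicate 2, clone 10 GFP- replicate 2 and clone 4 GFP+ replicate 3. They had the highest mitochondrial shares, at 2.32%, 2.11% and 2.21%, and each had the lowest summed CPM of the 63 genes in its group. The TruSeq v2 kit selects poly(A) RNA, and correctly ended histone mRNA has none, so every level given here is that of the histone RNA which such a library retains. In bulk RNA, a change in the number of cells with a transcript and a change in its amount per cell cannot be told apart.

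The hallmark of these genes was looked up first, because it bears on what was counted. A stem of 6 perfectly paired bases around a loop of 4 bases, matching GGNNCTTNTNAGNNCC on the transcript strand, was found in the annotated transcripts of 43 of the 63 genes (68.3%), against 61 of all 55449 annotated genes (0.11%). The GENCODE release M21 transcripts of the mm10 assembly were searched, with 55 genes matched by identifier and 8 by symbol. The sequences below show how the H4 stem differs from that of the other classes; the stem and loop are in capitals, and 5 bases on either side are in lower case where the transcript holds them.

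Hist1h4i: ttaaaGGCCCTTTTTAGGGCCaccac
Hist1h4h: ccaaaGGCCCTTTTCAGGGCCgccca
Hist1h4j: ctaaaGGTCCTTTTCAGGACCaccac
Hist1h3c: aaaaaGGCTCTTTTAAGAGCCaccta
Hist1h3g: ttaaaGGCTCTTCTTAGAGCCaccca
Hist1h2bj: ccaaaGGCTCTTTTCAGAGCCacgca
Hist1h2ae: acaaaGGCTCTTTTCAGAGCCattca
Hist1h1c: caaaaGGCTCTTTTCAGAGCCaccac

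The commonest form, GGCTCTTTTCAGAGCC, was shared by 23 genes of classes H1, H2A, H2B and H3. The 12 H4 genes with a match used other stems: 7 had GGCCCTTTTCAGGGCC, Hist1h4i and Hist2h4 had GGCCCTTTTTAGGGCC, Hist1h4b and Hist1h4j had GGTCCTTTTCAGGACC, and Hist1h4a had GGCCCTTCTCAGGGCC. Of the 63 genes, 23 had an annotated transcript that ran more than 100 bases past the stem-loop, where a poly(A) tail can be added; that of Hist1h4i went on for 330 bases, that of Hist1h1c for 840 and that of Hist2h3c1 for 1167. Another 20 ended within 100 bases of it and 20 had no match in their annotated transcripts. Some of those 20 have short annotated exons, such as 312 bases for Hist1h4k, 393 for Hist1h2ai and 411 for Hist1h3h. Their annotation may stop before a stem-loop, so no match does not mean that the mRNA lacks it. Median levels were low in all of these, at 1.70 CPM for long transcripts, 1.31 CPM for those that stop within 100 bases and 0.803 CPM for those without a match. Per kilobase of exon the medians were 1.21, 2.88 and 1.73 CPM, so the order of long and short ends was not the same on the per-length scale. Exon lengths were those of the annotation searched here. For some genes with long ends, such as Hist1h4i and Hist1h4d, they exceed the span in the authors' tables. Reads beyond that span may not have been counted, so the per-length order is uncertain.

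In clone 10, histone mRNA was more abundant in GFP+ cells than in GFP- cells in all 3 pairs. By summed level the ratio was highest for class H4, a rank that rested on Hist1h4i, and lowest for H1. The 63 genes together had 565, 177 and 578 CPM in GFP+ replicates 1 to 3, against 202, 61.9 and 90.9 CPM in GFP- replicates 1 to 3. The ratio was 2.80, 2.85 and 6.35 in the 3 pairs. GFP+ replicates 1 and 3 lay above every GFP- library, while GFP+ replicate 2 lay below GFP- replicate 1, so the groups overlapped.

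By class, H4 averaged 222 ± 119 CPM in GFP+ cells and 35.3 ± 16.7 CPM in GFP- cells of clone 10, a ratio of 6.29 (SD, n = 3 each). H3 averaged 65.3 ± 36.6 CPM in GFP+ cells and 15.8 ± 11.9 CPM in GFP- cells, a ratio of 4.13. H2A averaged 32.9 ± 17.1 CPM in GFP+ cells and 8.70 ± 5.96 CPM in GFP- cells, a ratio of 3.79. In every class GFP- replicate 1 was the highest of the GFP- libraries. H2B averaged 69.9 ± 35.5 CPM in GFP+ cells and 25.2 ± 10.1 CPM in GFP- cells, a ratio of 2.78, and H1 averaged 49.4 ± 21.6 CPM in GFP+ cells and 33.2 ± 30.4 CPM in GFP- cells, a ratio of 1.49. For the core classes every pair was higher in GFP+ cells, with H4 at 5.04, 3.79 and 10.6 times, while H1 had pair ratios of 0.946, 2.05 and 3.02.

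**Figure D1:**
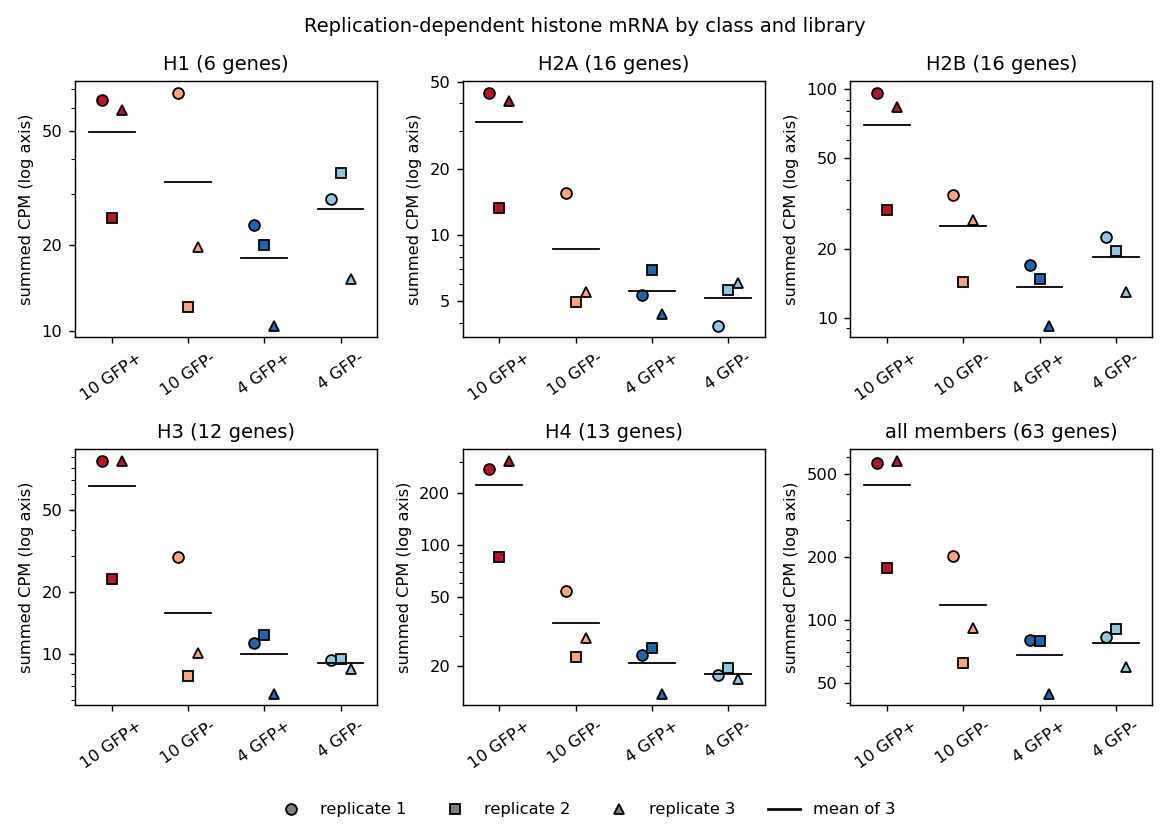
Summed CPM of each histone class (log axis) in every library of clones 10 and 4, with GFP+ and GFP- cells side by side; shapes mark replicates and bars the mean of 3. GFP+ replicates 1 and 3 of clone 10 are the highest libraries in H2A, H2B, H3 and H4, and in H1 GFP- replicate 1 is higher still, at 68.1 CPM.

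Enough reads for a test were held by 52 genes; the other 11, with 13 to 123 reads in all, were Hist1h1t, Hist1h2aa, Hist1h2af, Hist1h2al, Hist2h2aa2, Hist2h2ab, Hist2h2ac, Hist1h2ba, Hist1h2bf, Hist2h3c2 and Hist4h4. Across all libraries without pairing, edgeR called 0 of 52 in clone 10 at an adjusted p under 0.05, and 0% of the 15179 genes tested; 48 of the 52 had a positive change, and 28 had an unadjusted p under 0.05. DESeq2 called 11, against 1.9% of all genes tested, and limma-voom called 1, against 0.29%. With GFP+ and GFP- libraries of the same replicate number compared within pairs, edgeR called 24 of 52 (46.2%), all higher in GFP+ cells, where 3.49% of all genes tested were higher and 4.22% were called in either direction. All 52 had a positive change within pairs, with a median log2 change of 1.77 against -0.01 over all genes tested. Higher CPM in all 3 GFP+ libraries than in any GFP- library was seen for 18 of 52 genes (34.6%), against 10.9% of all genes tested, and a higher value in each pair for 47 (90.4%), against 31.0%. The calls came from every class: 7 of 12 H4, 5 of 11 H3, 5 of 10 H2A, 6 of 14 H2B and 1 of 5 H1 genes.

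The count of calls depended on single pairs. Leaving out pair 1 of clone 10 gave 27 calls within pairs, 20 of them among the 24. Leaving out its pair 2 gave 9, and leaving out its pair 3 gave 1, all among the 24. The libraries of clone 4 share the estimate of the spread, and without its pair 1, 2 or 3 there were 15, 13 or 10 calls. The only gene called without pair 3 of clone 10 was Hist1h4i. With libraries of clone 10 alone 7 were called, all among the 24. The share of all genes called in each of these reduced fits is not given here.

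The markers of a rare state that resembles the 2-cell embryo were higher in GFP+ cells in every pair of both clones. The summed histone level was higher in GFP+ cells only in clone 10. The summed level of 11 such genes, which embryonic stem cells switch on for short periods, was 3756, 791 and 2472 CPM in clone 10 GFP+ replicates 1 to 3, against 165, 88.7 and 74.0 CPM in GFP- replicates. In clone 4 it was 259, 37.1 and 25.3 CPM in GFP+ replicates, against 15.3, 4.43 and 6.23 CPM in GFP- replicates. Across all libraries edgeR called 0 of 11 in clone 10 (adjusted p = 0.0933 to 0.291), 0 of 11 in clone 4 and 6 of 11, all higher, in the mean of both clones. Within pairs 11 of 11 rose in clone 10, where 3.49% of all genes tested were higher, and 4 of 11 in clone 4, where 0.119% were called either way. Between the clones, 5 of 11 were higher in clone 10 in GFP+ cells and 0 of 11 passed in GFP- cells. Their part in the histone results was not tested.

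Among the 63 genes, Hist1h4i had the highest level, at a mean of 54.3 CPM over the 12 libraries. Per kb of annotated exon it had 74.7 CPM, with Hist1h3c next at 12.3. This H4 gene (ENSMUSG00000060639, chromosome 13, 22040816 to 22041352, minus strand, mm10) lies in the smallest of the 3 clusters on that chromosome. It had 204, 70.0 and 246 CPM in GFP+ replicates 1 to 3 of clone 10, against 24.8, 17.1 and 19.5 CPM in GFP- replicates. Every GFP+ library was above every GFP- library. The log2 change was 2.79 (SE 0.30, adjusted p = 0.00217, edgeR) within pairs and 2.92 (SE 0.42, adjusted p = 0.0732) across all libraries. It supplied 36.1%, 39.6% and 42.6% of the reads counted for the 63 genes in the GFP+ libraries of clone 10, against 12.3%, 27.6% and 21.4% in the GFP- libraries.

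Other H4 genes had far lower levels. Leaving Hist1h4i out, the H4 class was still higher in GFP+ cells of clone 10, with a log2 ratio of 1.72 against 2.65 with it. At 1.72 it was below the log2 ratios of the H3 class (2.05) and the H2A class (1.92). Hist1h4j had 3.30, 2.62 and 4.09 CPM in GFP+ replicates, against 0.845, 0.736 and 0.525 CPM in GFP- replicates, with no overlap (log2 change within pairs 2.11, SE 0.40, adjusted p = 0.0228, edgeR). Hist1h4h had 6.80, 1.60 and 6.70 CPM in GFP+ cells, against 2.54, 0.521 and 2.34 CPM in GFP- cells. It was higher in every pair but the groups overlapped, since GFP+ replicate 2 was below GFP- replicates 1 and 3 (1.38, SE 0.25, adjusted p = 0.0207, edgeR). Hist1h4m, Hist1h4d, Hist1h4k and Hist1h4a also rose, with log2 changes of 1.47 to 2.94, and Hist1h4b, Hist1h4n, Hist1h4f, Hist1h4c and Hist2h4 had changes of 1.20 to 2.64 that did not pass the threshold.

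Among H3 genes, most reads came from Hist1h3c, which had 27.8, 3.76 and 31.8 CPM in GFP+ replicates of clone 10, against 7.09, 1.41 and 3.29 CPM in GFP- replicates. GFP+ replicate 2 fell among the GFP- values, so the groups overlapped although each pair was higher in GFP+ cells (log2 change within pairs 2.12, SE 0.36, adjusted p = 0.0163, edgeR). Hist2h3c1, in the cluster on chromosome 3, had 3.61, 4.91 and 10.7 CPM in GFP+ libraries, against 0.463, 1.20 and 0.668 CPM in GFP- libraries, with no overlap (2.84, SE 0.53, adjusted p = 0.0227, edgeR). Every stretch of 50 bases in its annotated exons also occurs in another annotated transcript, so reads of this gene are uncertain. Hist1h3a, Hist1h3f and Hist1h3h rose as well, by 1.39 to 2.75. Hist1h3e, the H3 gene with the next most reads, had 11.4, 2.38 and 9.17 CPM in GFP+ replicates against 6.25, 0.828 and 1.00 CPM in GFP- replicates (1.65, SE 0.47, adjusted p = 0.0864, edgeR). Hist1h3g had 7.06, 2.38 and 5.57 CPM in GFP+ cells against 2.47, 1.01 and 0.430 CPM in GFP- cells (1.88, SE 0.52, adjusted p = 0.0796, edgeR).

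For the H2A and H2B partners of the nucleosome's outer dimers, called genes lay between 1.88 and 3.20 on the log2 scale. Hist1h2ah had 2.83, 1.14 and 3.70 CPM in GFP+ replicates of clone 10, against 0.540, 0.184 and 0.0477 CPM in GFP- replicates, with no overlap (3.20, SE 0.63, adjusted p = 0.0272, edgeR). Hist1h2ai had 6.38, 1.81 and 4.88 CPM in GFP+ cells, against 1.08, 0.613 and 0.477 CPM in GFP- cells, also with no overlap (2.33, SE 0.39, adjusted p = 0.0155, edgeR). Only 7.87% and 9.88% of the 50-base stretches of Hist1h2ah and Hist1h2ai are found in no other gene, so how reads were shared among H2A copies is uncertain.

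The H2B gene Hist1h2bg had 5.96, 2.38 and 4.44 CPM in GFP+ replicates, against 1.62, 0.613 and 0.955 CPM in GFP- replicates, with no overlap (1.89, SE 0.31, adjusted p = 0.0131, edgeR). Hist1h2bj had 18.8, 1.75 and 17.0 CPM in GFP+ cells, against 3.62, 0.767 and 2.10 CPM in GFP- cells. Its GFP+ replicate 2 was below GFP- replicates 1 and 3, so the groups overlapped (2.14, SE 0.35, adjusted p = 0.0147, edgeR). Hist3h2ba, on chromosome 11, had 11.1, 2.77 and 4.98 CPM in GFP+ libraries, against 2.39, 0.644 and 0.907 CPM in GFP- libraries, and every GFP+ library was above the GFP- ones (2.12, SE 0.37, adjusted p = 0.0174, edgeR). Further genes called were Hist1h2ae, Hist1h2ac and Hist1h2ag of H2A and Hist1h2be, Hist1h2bp and Hist1h2bb of H2B, with changes of 1.88 to 3.07. The H2B gene with most reads was Hist1h2bc, with 20.5, 11.7 and 23.0 CPM in GFP+ replicates, against 9.10, 7.17 and 15.7 CPM in GFP- replicates, a smaller change that did not pass (0.68, SE 0.17, adjusted p = 0.064, edgeR).

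Linker histone genes had within-pair changes of 0.02 to 1.13 in clone 10, and 1 of 5 passed the test. Hist1h1c, whose mRNA is the most abundant of the H1 genes, had 31.0, 16.6 and 38.4 CPM in GFP+ replicates of clone 10, against 15.7, 7.79 and 14.5 CPM in GFP- replicates. Every GFP+ library was above every GFP- library, and Hist1h1c was the only H1 gene called within pairs (1.05, SE 0.20, adjusted p = 0.0246, edgeR). Hist1h1b, Hist1h1d and Hist1h1e had within-pair changes of 0.02, 0.17 and 0.19 with standard errors of 0.53 to 0.82, and Hist1h1a one of 1.13 (SE 0.36, adjusted p = 0.112, edgeR). Across all libraries the first 3 had the opposite sign, at -1.004, -0.80 and -1.23, and none passed in either fit. GFP- replicate 1, the shallowest library, held the highest values of 3 of these genes: Hist1h1b had 4.24, 1.38 and 2.07 CPM in GFP+ replicates, against 11.6, 0.767 and 0.716 CPM in GFP- replicates. Without that library the unpaired changes of Hist1h1b, Hist1h1d and Hist1h1e were 1.72, 1.57 and 2.47.

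**Figure D2:**
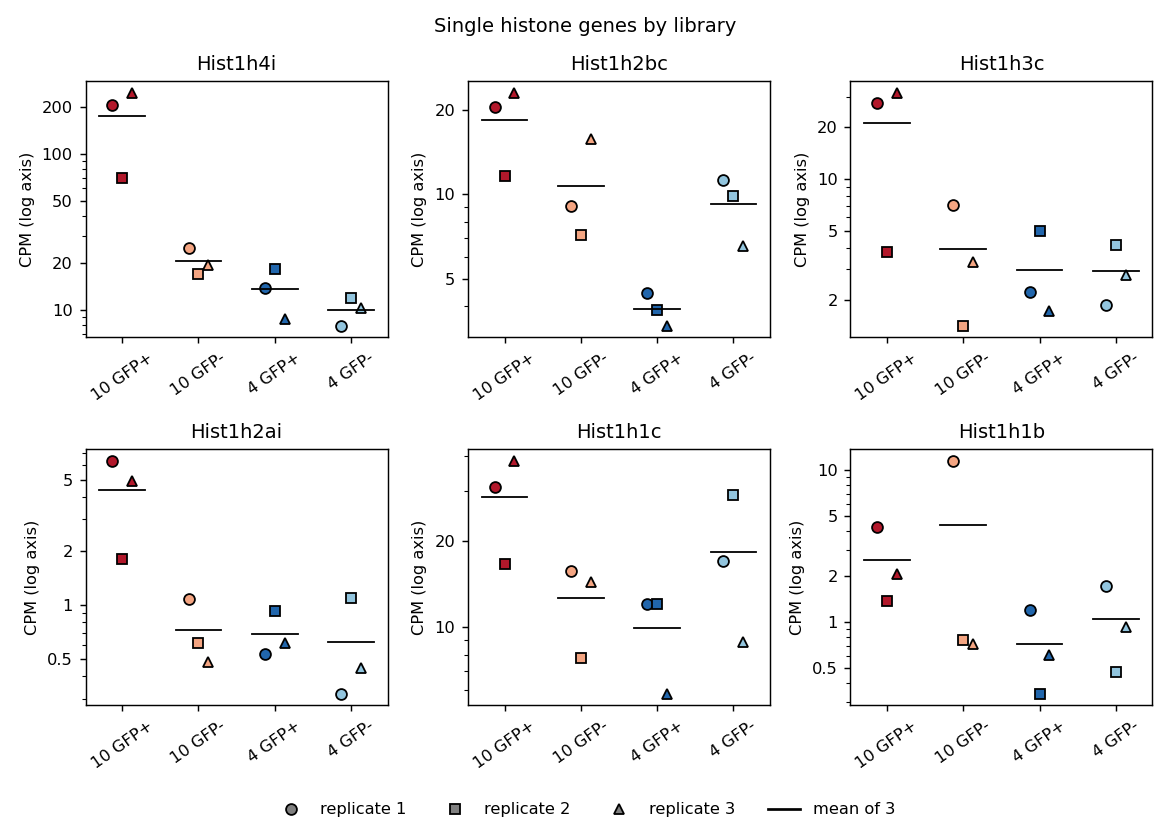
CPM (log axis) of 6 histone genes in every library, GFP+ and GFP- cells of clones 10 and 4; shapes mark replicates and bars the mean of 3. Hist1h4i, Hist1h2ai and Hist1h1c have all GFP+ libraries of clone 10 above all GFP- libraries, while Hist1h1b is highest in clone 10 GFP- replicate 1 at 11.6 CPM.

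In clone 4 the summed histone mRNA was slightly lower in GFP+ cells in each pair. All 63 genes together had 80.3, 79.4 and 44.3 CPM in GFP+ replicates 1 to 3, against 82.4, 90.1 and 59.5 CPM in GFP- replicates, and the ratio was 0.974, 0.882 and 0.744 in the pairs. In pair 3 the GFP+ library was the deepest of all and had 2.21% mitochondrial reads, against 1.43% in the GFP- library. The part of this difference in the ratio of 0.744 was not tested. By class the ratio of means was 0.674 for H1, 1.07 for H2A, 0.743 for H2B, 1.11 for H3 and 1.15 for H4. Across all libraries edgeR called 0 of 52 genes, and 0% of all genes tested, with 2 at an unadjusted p under 0.05; DESeq2 called 0, against 0.217% of all genes, and limma-voom 0, against 0%. Within pairs edgeR called 0 of 52, against 0.119% of all genes tested, with 3 at an unadjusted p under 0.05; limma-voom called 0, against 0.0461% of all genes, and DESeq2 called 1, against 1.2%, which was Hist1h2bc, lower in GFP+ cells. The median change was -0.01 within pairs, and 26 of 52 were positive. A higher value in each pair was seen for 4 of 52 genes (7.69%), against 15.9% of all genes tested.

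Hist1h4i in clone 4 had 13.8, 18.3 and 8.82 CPM in GFP+ replicates, against 7.93, 11.9 and 10.3 CPM in GFP- replicates, overlapping values with a change of 0.41 (SE 0.30, adjusted p = 0.72, edgeR within pairs). Hist1h2bc had 4.47, 3.87 and 3.42 CPM in GFP+ replicates, against 11.3, 9.90 and 6.56 CPM in GFP- replicates. All its GFP+ libraries were below all GFP- libraries, and the change just missed the threshold (-1.19, SE 0.18, adjusted p = 0.0566, edgeR within pairs). It passed, as lower, when low counts were not filtered, when clone 4 was fitted alone or when clone 10 replicate 1 was left out. Hist1h1c had 12.0, 12.1 and 5.84 CPM in GFP+ cells, against 17.0, 29.1 and 8.90 CPM in GFP- cells, lower in each pair with overlap (-0.78, SE 0.20, adjusted p = 0.308, edgeR within pairs). Hist2h3c1 and Hist1h4m lay higher in GFP+ cells with no overlap, at low levels. These were 2 of 52 genes (3.85%), against 1.61% of all genes tested. Hist2h3c1 had 0.769, 0.533 and 0.35 CPM in GFP+ replicates, against 0, 0.208 and 0.162 CPM in GFP- replicates. Hist1h2bc alone lay lower with no overlap, 1 of 52 (1.92%), against 2.04% of all genes tested.

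**Figure D3:**
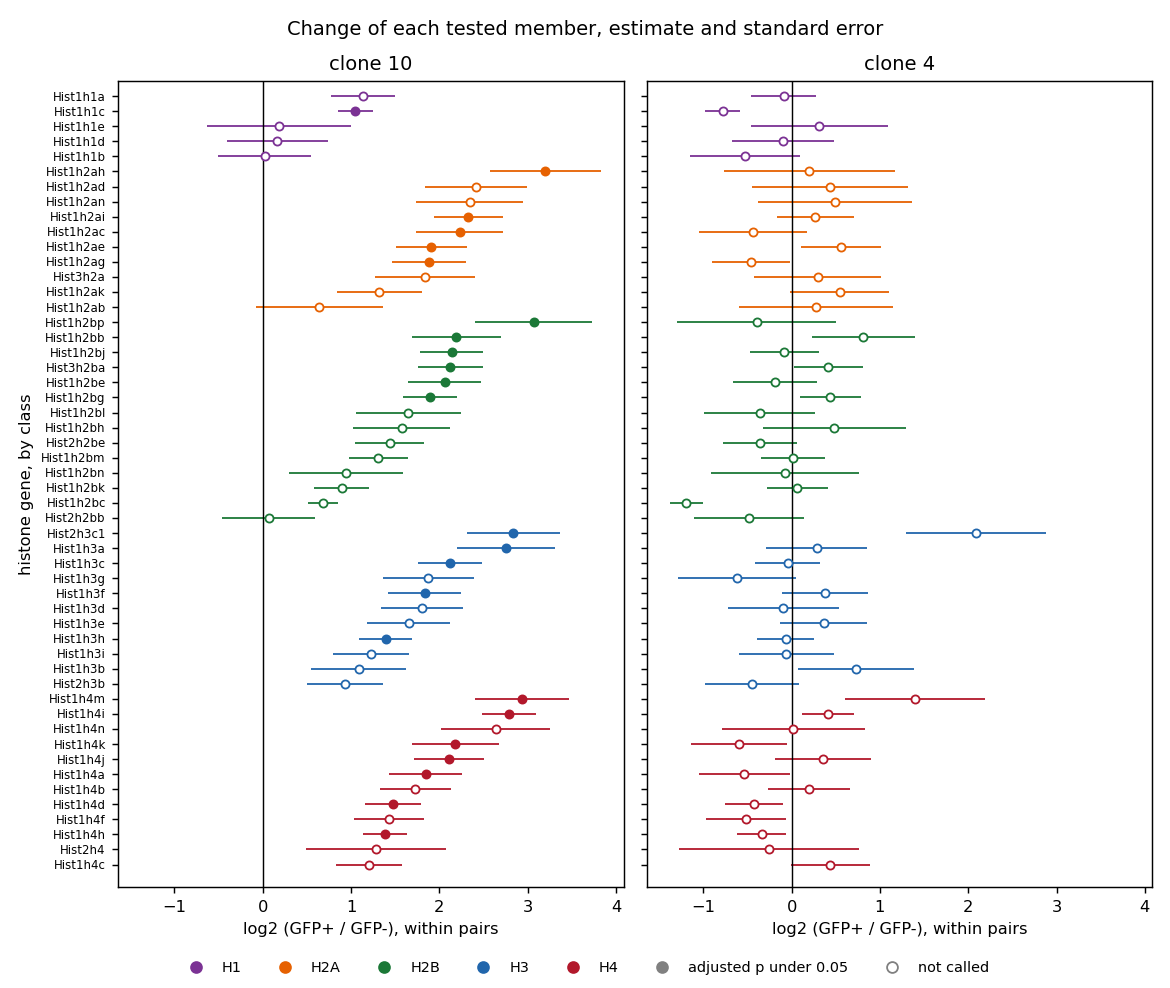
Log2 change of GFP+ over GFP- cells within pairs for the 52 tested histone genes in clone 10 and clone 4, grouped by class; points are estimates, bars standard errors, and filled points have an adjusted p under 0.05. All 52 estimates lie above 0 in clone 10 (median 1.77) and 26 of 52 do in clone 4.

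The difference of the clones in the GFP+ against GFP- change was tested directly. It was positive, larger in clone 10, for 51 of 52 genes within pairs, with a median of 1.62 against -0.03 over all genes tested. For single genes edgeR called 0 of 52, and 0% of all genes tested, with 29 at an unadjusted p under 0.05. DESeq2 within pairs called 5, Hist1h1c, Hist1h2bc, Hist1h2bj, Hist1h3c and Hist1h4i, against 0.422% of all genes, and limma-voom 0, against 0%. The difference was 2.37 for Hist1h4i (SE 0.42, adjusted p = 0.418) and 1.87 for Hist1h2bc (SE 0.25, adjusted p = 0.325) in edgeR. Across all libraries edgeR, DESeq2 and limma-voom called 0 histone genes and 0% of all genes, with 13 at an unadjusted p under 0.05 in edgeR.

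Averaged over both clones, edgeR across all libraries called 1 of 52, Hist1h4i, higher in GFP+ cells (1.68, SE 0.28, adjusted p = 0.0475), against 0.152% of all genes tested that were higher and 0.158% called either way. This call was lost under limma-voom (1.62, adjusted p = 0.15) and without any of 9 single libraries (1.53 to 1.82). It held only without clone 10 GFP+ replicate 2 or clone 4 GFP+ replicate 2 or 3, and the adjusted p over the 12 omissions was 0.0199 to 0.168 (edgeR). Within pairs it was 1.60 (SE 0.21, adjusted p = 0.00571, edgeR), and 1.52 (adjusted p = 0.0543, edgeR) without pair 1 of clone 4. Within pairs 5 were called, Hist1h4i, Hist2h3c1, Hist1h2bg, Hist3h2ba and Hist1h4m (1.16 to 2.46), where 2.51% of all genes were higher and 3.36% were called. The most negative averages across all libraries were those of Hist1h1b (-0.78, SE 0.72, adjusted p = 0.812, edgeR) and Hist2h2bb (-0.56, SE 0.64, adjusted p = 0.853, edgeR), an H2B gene.

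Clone 10 averaged more histone mRNA than clone 4 in both sorted groups, with no overlap of the summed level in GFP+ cells. Summed over all members, clone 10 averaged 440 ± 228 CPM and clone 4 averaged 68.0 ± 20.5 CPM in GFP+ cells, a ratio of 6.46 (SD, n = 3 each). The ratio was 10.7 for H4, 6.49 for H3, 5.93 for H2A, 5.12 for H2B and 2.76 for H1. All 52 tested genes had a positive change, with a median log2 of 2.50 against 0.00 over all genes tested. In edgeR 6 passed, against 0.83% of all genes tested that were higher in clone 10 and 1.11% called either way. DESeq2 called 33, against 5.86% of all genes either way, and limma-voom 14, against 2.79%.

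The 6 genes were Hist1h4i (3.69, SE 0.43, adjusted p = 0.0136), Hist1h2bc (2.25, SE 0.36, adjusted p = 0.0264), Hist1h4j, Hist1h2ah, Hist2h3c1 and Hist1h3g. In edgeR their number was 0 without clone 10 GFP+ replicate 1 and 0 without clone 4 GFP+ replicate 2 or 3. It was 1 without clone 10 GFP+ replicate 3, 3 without clone 4 GFP+ replicate 1, 14 without clone 10 GFP+ replicate 2 and 17 without clone 10 GFP- replicate 1. Hist1h2bc had no overlap between clone 10 GFP+ libraries (11.7 to 23.0 CPM) and clone 4 GFP+ libraries (3.42 to 4.47 CPM). Passage labels differed between the clones; with passage as a covariate 25 were called, against 2.48% of all genes.

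In GFP- cells the clones were closer. Members summed to 118 ± 73.9 CPM in clone 10 and 77.3 ± 15.9 CPM in clone 4 (SD, n = 3 each), a ratio of 1.53, with clone 10 replicate 2 at 61.9 CPM inside the clone 4 range of 59.5 to 90.1 CPM. Of the 52 genes 48 had a positive change with a median of 1.17, and edgeR called 0, against 0.0461% of all genes tested. At an unadjusted p under 0.05 there were 8, limma-voom called 0, against 0.0725% of all genes, and DESeq2 called 1, Hist2h3c1, against 2.75%. The comparisons of the clones in GFP+ and in GFP- cells share no libraries with each other, but both share libraries with the comparisons within a clone.

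Tested genes of every cluster had positive changes in clone 10 within pairs. Histone genes are clustered, and 50 of the 63 lie in 3 blocks on chromosome 13. In clone 10 within pairs, 12 of 26 tested genes were called in the largest block (chromosome 13, 23531044 to 23934851, mm10), 6 of 14 in the next (21715763 to 21832196) and 4 of 5 in the smallest (22035113 to 22043676), which holds Hist1h2ah, Hist1h2bk, Hist1h4i, Hist1h2ag and Hist1h2bj. The cluster on chromosome 3 had 1 of 5 called, Hist2h3c1, and that on chromosome 11 had 1 of 2, Hist3h2ba. Median log2 changes were 1.69, 1.88 and 2.14 in the largest, next and smallest blocks of chromosome 13. Over all genes tested 4.22% were called. Of the tested genes nearest the blocks that are not histones, the only one called was Bola1, which was higher. It was 1 of 5 tested beside the chromosome 3 cluster. On chromosome 13, 5 such neighbours were tested beside the largest block, 0 beside the next and 2 beside the smallest. Histone genes and their neighbours could thus hardly be compared at the last 2 blocks.

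**Figure D4:**
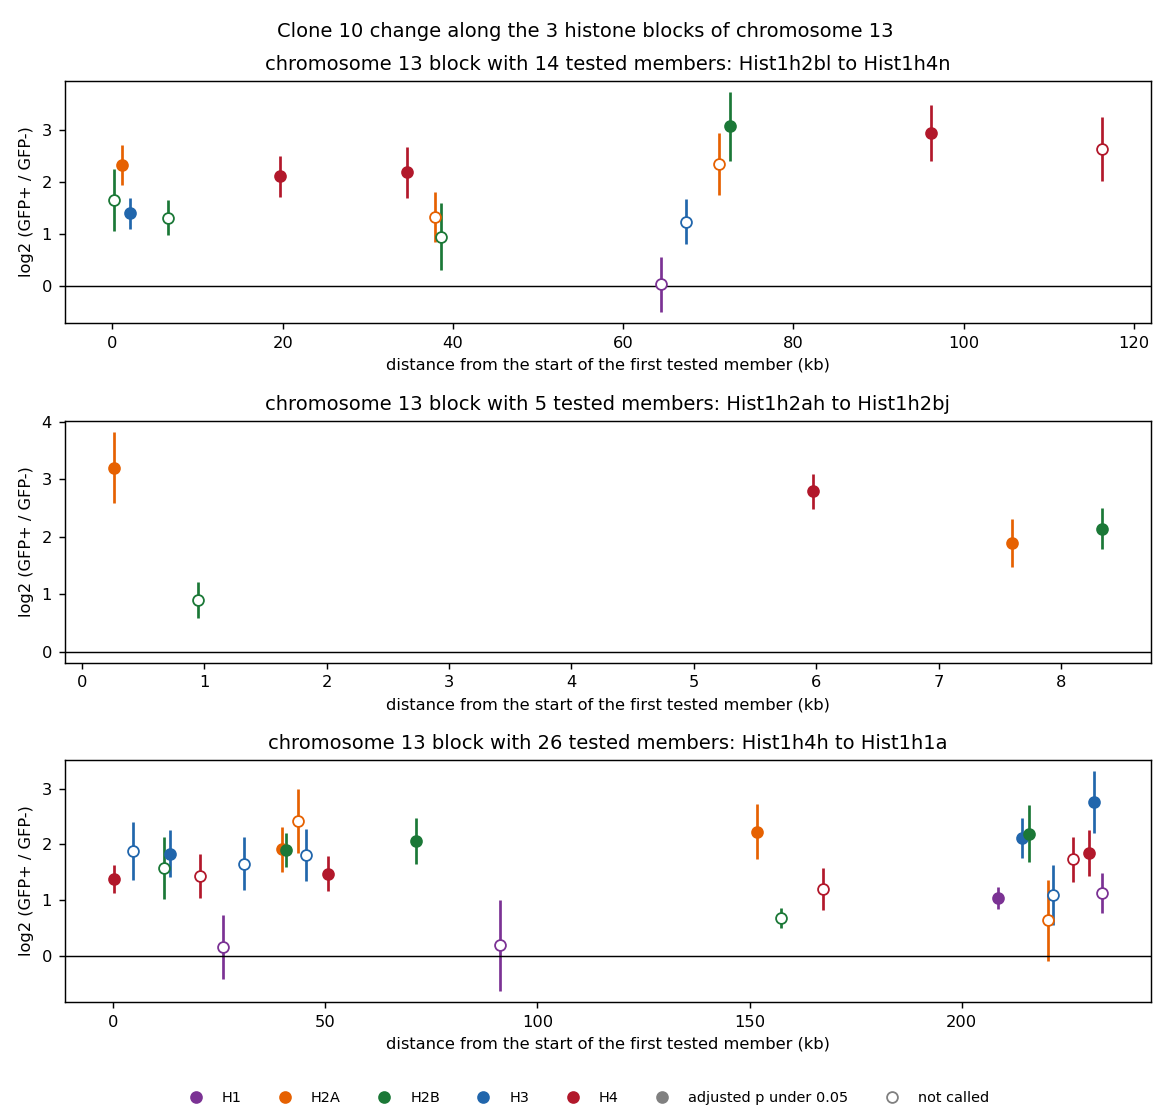
Log2 change of GFP+ over GFP- cells in clone 10 within pairs (points, with standard errors) against distance in kb from the first tested gene of each block on chromosome 13; colours mark the class and filled points have an adjusted p under 0.05. Genes of all core classes lie above 0 in the 3 blocks, and the H1 genes Hist1h1b, Hist1h1d and Hist1h1e lie near 0 among them.

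Many H2A and H2B genes face away from each other and share the DNA between their starts. Among the symbols 12 such pairs were found with 175 to 305 bases between the starts, and 7 had both genes tested. In clone 10 within pairs both genes were called in 2 pairs (Hist1h2ae with Hist1h2bg, Hist1h2ag with Hist1h2bj), one was called in 4 pairs and neither in 1 (Hist1h2ak with Hist1h2bn). The changes of 2 partners could lie far apart: Hist1h2ah had 3.20 and its partner Hist1h2bk 0.89, and Hist1h2ac had 2.23 and Hist1h2bc 0.68.

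Promoters were compared because the genes moved together in clone 10. Those of 57 of the 63 genes were in the RefSeq table (GRCm38.p6), from 250 bases before to 50 bases after the start. Searched on both strands, the TATA motif TATAAA was found in 59.6% of the 57, against 13.6% of all 32851 promoters in the table, the CCAAT motif in 84.2% against 37.4%, and the octamer ATTTGCAT, to which OCT1 and OCT4 bind, in 22.8% against 1.74%. None of the 3 motifs contains another, but neighbouring matches can share bases at their ends. CCAAT was in every H1, H2A, H2B and H3 promoter and in 3 of 12 H4 promoters. The octamer was in 7 of 15 H2A and 6 of 14 H2B promoters and in no H1, H3 or H4 promoter. H2A and H2B partners that face away from each other share the DNA between their starts. A single site there can be counted for both partners, so these counts, and the shares of the 57 promoters, are not of independent sites. The share with each motif was 63.6%, 77.3% and 22.7% among the 22 promoters of genes called in clone 10 within pairs, and 60.0%, 88.0% and 20.0% among the 25 of tested genes that were not called. Of the 7 facing-away pairs with both genes tested, 4 joined a called gene to a gene that was not called. The same DNA can thus count in both sets, so these shares cannot decide whether the motifs differ between the sets.

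The 250 bases before the start are shown for a strongly raised H4 gene without CCAAT, for an H2B gene that shares its promoter with Hist1h2ag, and for an H1 gene whose change was near 0. Motif matches on either strand are in capitals, so a CCAAT on the other strand reads ATTGG. They lie on chromosome 13 at chr13:22041363-22041612 (minus strand), chr13:22042948-22043197 (plus strand) and chr13:21780626-21780875 (minus strand).

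Hist1h4i: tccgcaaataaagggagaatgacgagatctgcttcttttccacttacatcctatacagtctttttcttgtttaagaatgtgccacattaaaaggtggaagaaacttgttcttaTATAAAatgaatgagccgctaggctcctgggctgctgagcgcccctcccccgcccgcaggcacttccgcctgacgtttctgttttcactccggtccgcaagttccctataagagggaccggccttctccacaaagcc
Hist1h2bj: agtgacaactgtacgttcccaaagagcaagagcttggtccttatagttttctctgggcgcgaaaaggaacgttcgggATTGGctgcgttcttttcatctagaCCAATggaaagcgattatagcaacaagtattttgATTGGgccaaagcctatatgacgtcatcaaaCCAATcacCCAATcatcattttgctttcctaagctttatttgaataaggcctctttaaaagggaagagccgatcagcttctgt
Hist1h1b: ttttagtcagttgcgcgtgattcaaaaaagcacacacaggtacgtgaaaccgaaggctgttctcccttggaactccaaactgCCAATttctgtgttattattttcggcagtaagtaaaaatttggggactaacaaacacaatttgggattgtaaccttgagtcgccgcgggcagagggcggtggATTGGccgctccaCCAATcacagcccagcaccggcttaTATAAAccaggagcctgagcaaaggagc

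Hist1h2bj had 5 CCAAT matches and no TATAAA or octamer match, Hist1h1b had 3 CCAAT matches and 1 TATAAA, and Hist1h4i had 1 TATAAA and no CCAAT.

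Called genes in clone 10 within pairs were found with every kind of annotated end. They numbered 12 of 20 tested genes with more than 100 bases after the stem-loop, 8 of 17 with fewer and 4 of 15 with no match. Median log2 changes were 1.83, 1.88 and 1.32, where no match can reflect a short annotation. Sharing of sequence was common: over the 63 genes a median of 50.7% of the 50-base stretches were found in no other gene, and 29 genes had under 50%. The median was 53.6% in called genes and 51.1% in tested genes that were not called. The 5 genes under the count minimum had a median of 6.5%, and how reads that match several copies were counted is not stated in the labels.

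No gene of the machinery that makes histone mRNA passed the test in clone 10. Of 22 genes for histone mRNA processing and transcription, 0 were called in clone 10 in either fit by edgeR, with a median of -0.10 within pairs. Slbp, which binds the stem-loop, had 129, 108 and 88.2 CPM in GFP+ replicates of clone 10, against 98.6, 116 and 86.4 CPM in GFP- replicates (-0.02, SE 0.12, adjusted p = 0.948, edgeR within pairs). Npat, the coactivator of histone genes at S phase, had a change of 0.30 (SE 0.21, adjusted p = 0.393, edgeR). No member of the lists for replacement histones (11 tested) and histone chaperones (18) was called in clone 10 in either fit, and the medians within pairs were 0.00 and -0.13. H2afx, which makes both a stem-loop and a polyadenylated mRNA and whose annotated transcript holds the stem-loop, had 463, 197 and 574 CPM in GFP+ cells against 482, 139 and 344 CPM in GFP- cells (0.28, SE 0.24, adjusted p = 0.487, edgeR within pairs).

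Genes of DNA replication in S phase, when histones are made, had 0 of 24 called in clone 10 in either fit, with a median of -0.28 within pairs. All 24 had a negative change in clone 10 in either fit. Their summed level in clone 10 was 4671, 5350 and 4671 CPM in GFP+ replicates 1 to 3, against 5805, 5899 and 5246 CPM in GFP- replicates. It was lower in GFP+ cells in each pair, although the ranges overlapped. Mcm2, part of the replicative helicase, had a change of -0.38 (SE 0.13, adjusted p = 0.126, edgeR within pairs). Of the 8 embryonic stem cell markers 0 were called, with a median of -0.37, and Klf4 came closest (-0.45, SE 0.12, adjusted p = 0.0669, edgeR within pairs). The 10 fibroblast genes, which feeder cells could supply, were at 862 to 1807 CPM in GFP+ and 459 to 2804 CPM in GFP- libraries of clone 10, and at 856 to 1424 CPM in GFP+ and 967 to 2224 CPM in GFP- libraries of clone 4. All 10 had a negative change in both clones in either fit, and edgeR called 0 across all libraries. Within pairs 0 passed in clone 10, while Postn (-2.07) and S100a4 (-2.72) were lower in clone 4 (adjusted p = 0.0492 for both, edgeR, where 0.119% of all genes were called). In the mean of both clones within pairs Postn, Tagln, S100a4 and Acta2 were lower (adjusted p = 0.00362 to 0.00806, edgeR, where 3.36% of all genes were called). Their part in the histone results was not tested.

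**Figure D5:**
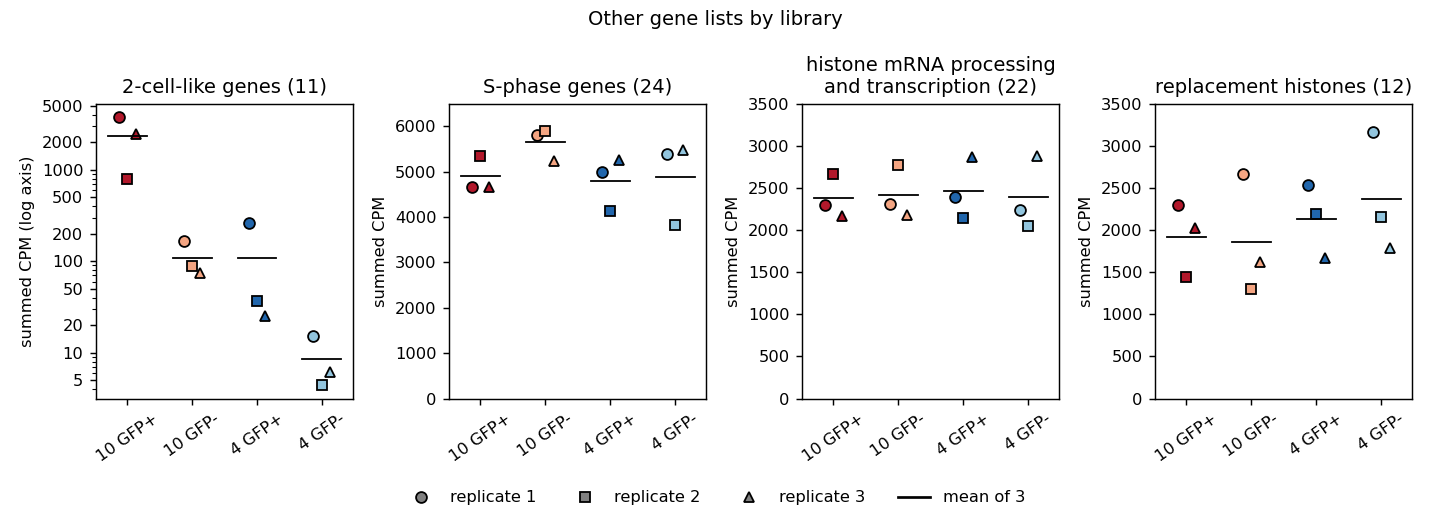
Summed CPM of 4 gene lists in every library, GFP+ and GFP- cells of clones 10 and 4; shapes mark replicates and bars the mean of 3. The 2-cell-like genes (log axis) are 791 to 3756 CPM in clone 10 GFP+ cells and 74.0 to 165 CPM in clone 10 GFP- cells, while the other 3 lists (axes from 0) overlap between the sorted groups or lie lower in GFP+ cells.

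In the authors' deposited table for clone 10, 12 of the 60 histone genes with an adjusted p were higher at an adjusted p under 0.05, and 2.64% of all genes with one were. By the same table they were Hist1h4i, Hist1h2bp, Hist2h3c1, Hist1h4j, Hist1h2be, Hist1h3a, Hist1h2ai, Hist1h2ah, Hist1h2ae, Hist1h4m, Hist1h2bg and Hist1h4k, and the log2 change of Hist1h4i was 2.19 (SE 0.36, adjusted p = 2.87e-07 in the authors' deposited table). For clone 4 the authors' deposited table called 0 of the 17 histone genes that had an adjusted p, and 8 of all 13352 genes with one (0.0599%).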

How the data were processed

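RNA was sequenced in 12 libraries from 2 clones of mouse embryonic stem cells, with 3 per clone and sort. The deposited table holds raw, whole-number read counts per gene. The submitters' processing notes name mm10, HTSeq 0.6.0, STAR 2.3.0e, DESeq2 and DESeq. Neither the annotation nor the strand setting of the counting is given in the sources used here, and overlapping genes on opposite strands cannot be told apart. The authors' deposited tables per clone add, per the file headers, a signal per library normalized by size factors, log2 fold changes with standard errors, a test score, and raw and adjusted p-values; only log2 changes, their errors and adjusted p-values are quoted. No per-sample column was left unused for want of a sample.

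Genes were tested with edgeR 4.0.16 (R 4.3.3, robust quasi-likelihood, TMM). Genes needed a level worth 10 counts in at least 3 libraries and 15 in total, which left 15179; p-values were adjusted by Benjamini-Hochberg over them, and calls are at 0.05. CPM scales each count by the library's total, without TMM. The fit across all libraries, without a block, was the main one. Replicate numbers pair the sorted libraries. Deviations from group means correlated at 0.548 to 0.822 in the 6 same-numbered pairs of a clone and at -0.541 to -0.228 otherwise. Within a group of 3 libraries the deviations cancel out, so the negative values partly follow from the positive ones and are not separate evidence. Given the positive values, results within pairs, with the pair as a block, are given beside the main fit. DESeq2 1.42.0 and limma-voom 3.58.1 were alternatives. CPM and ratio errors are SDs over 3 libraries.

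The members, the gene lists and the tests were chosen with earlier results of these data known. Genes named were the 2 most abundant of each class, those called in any comparison, with the first 12 in full, and the 2 largest average changes in each direction. Sequences came from RefSeq (GRCm38.p6 promoters) and GENCODE M21 transcripts.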

Additional observations from a re-analysis of the deposited data

How the results depend on the processing

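Counts of called histone genes moved with the test and the pairing. Without pairing, clone 10 gave 0 calls by edgeR, 11 by DESeq2 and 1 by limma-voom, with no filter on low counts or with passage as a covariate; leaving out 1 library gave 0 to 1. With the replicate block it gave 24 calls, 24 with RLE size factors, 36 with DESeq2, 30 with limma-voom, 28 with no filter, 23 with a stricter filter and 7 with only clone 10 libraries, and 27, 9, 1, 15, 13 and 10 without pairs 1, 2 and 3 of clone 10 and then of clone 4. With the block in edgeR 4.22% of all genes tested were called in clone 10. The share over all genes in the other blocked settings of clone 10 is not given here, so a setting that calls more of every gene cannot be recognised. The mean of both clones gave 1 call, 4 by DESeq2, 0 by limma-voom and 2 with passage, and 0 to 1 without 1 library; with the block it gave 5, 5 with RLE size factors, 14 with DESeq2, 5 with limma-voom, 11 with no filter, 4 with a stricter filter, and 0 to 11 without 1 pair. Clone 10 against clone 4 gave 6 calls in GFP+ cells, 33 by DESeq2, 14 by limma-voom and 25 with passage, and 0 to 17 without 1 library; in GFP- cells it gave 0, 1 by DESeq2 and 0 without any 1 library. The difference of the clones gave 0, and 5 by DESeq2 with the block; clone 4 gave 0, and 1 with the block by DESeq2, with no filter, with clone 4 alone or without 1 pair (0 to 1). The stricter filter and limma-voom with the block were chosen after the data were seen. The block also moved the calls of other lists: 2-cell-like genes had 11, 4 and 11 called with it in clone 10, clone 4 and the mean, against 0, 0 and 6 without it, and fibroblast genes had 0, 2 and 4, against 0 in each. The causes of these moves were not tested, except that fewer libraries were fitted in some.

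Class levels kept their direction in clone 10 (log2 ratio of all members 1.59 to 2.53 without 1 library, of H1 0.17 to 1.64, of H2A 1.64 to 2.65, of H2B 1.17 to 1.84, of H3 1.72 to 2.87 and of H4 2.35 to 3.11). In clone 4 they were -0.34 to 0.046, -0.85 to -0.29, -0.09 to 0.24, -0.63 to -0.21, -0.03 to 0.39 and 0.03 to 0.43 for the same classes. Without its highest member the log2 ratio was 1.72 for H4 and 1.83 for H2B in clone 10, and 0.092 for H2B and -0.056 for H1 in clone 4.

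Between the fits without and with the block, the sign differed for 4 of 52 histone genes in clone 10 (Hist1h1b, Hist1h1d, Hist1h1e and Hist2h2bb), 2 in clone 4 (Hist1h2bm and Hist1h3c), 2 in the mean (Hist1h1d and Hist1h1e) and 3 in the difference of the clones (Hist1h1b, Hist1h1d and Hist1h3b), and 0 of these passed in either fit. In the following, values are for Hist1h1b, Hist1h1d, Hist1h1e and Hist2h2bb in that order. In clone 10 they were -1.004, -0.798, -1.226 and -0.52 without the block, 0.484, 0.499, 0.883 and 0.42 by limma-voom, and 0.344, 0.504, 0.723 and 0.437 with passage as a covariate. With the replicate block they were 0.022, 0.166, 0.188 and 0.066, with RLE size factors 0.008, 0.154, 0.173 and 0.054, with DESeq2 0.154, 0.25, 0.542 and 0.154, with no filter 0.023, 0.167, 0.187 and 0.076, with a stricter filter 0.027, 0.176, 0.193 and 0.06, and with only clone 10 libraries 0.001, 0.153, 0.182 and 0.038. With the block and without pair 1 of clone 10 they were 1.136, 1.231, 1.842 and 0.96; without a pair of clone 4 the positive values were 0.039 and 0.041 for Hist1h1b, 0.15, 0.178 and 0.18 for Hist1h1d, 0.138, 0.229 and 0.226 for Hist1h1e, and 0.04, 0.08 and 0.076 for Hist2h2bb. Without 1 library they ranged over -1.561 to 1.724, -1.299 to 1.569, -1.791 to 2.467 and -1.023 to 1.548, each highest without clone 10 GFP- replicate 1. In the mean of both clones they ranged over -1.054 to 0.592, -0.693 to 0.746, -0.723 to 1.496 and -0.811 to 0.477 without 1 library, and Hist1h1c over -0.077 to 0.313. In that mean, Hist1h1d, Hist1h1e and Hist2h2bb were 0.18, 0.535 and 0.001 by limma-voom, and all 4 were 0.022, 0.324, 0.581 and 0.103 with passage. With the block Hist1h1d and Hist1h1e were 0.034 and 0.251, 0.029 and 0.244 with RLE size factors, 0.076 and 0.406 with DESeq2, 0.04 and 0.256 with no filter and 0.038 and 0.252 with a stricter filter. Without pair 1 of clone 10 all 4 were 0.303, 0.567, 1.082 and 0.236; Hist1h1e was 0.005 without its pair 2; without a pair of clone 4, positive values were 0.056 and 0.063 for Hist1h1d, 0.327 and 0.496 for Hist1h1e and 0.003 for Hist2h2bb. Between the clones in GFP+ cells Hist1h1e ranged over -0.112 to 1.131 without 1 library. Depth limits the low genes most: 1 CPM is worth 13.0 to 34.3 reads.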
